A study of Bos taurus with 6 samples.

Results

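Some miRNAs are so closely tied to blood cells that they are used to read how much blood a tissue preparation contains. The 7 examined here were bta-miR-142-3p, bta-miR-142-5p, bta-miR-223 and bta-miR-150, which mark leukocytes, and bta-miR-451, bta-miR-144 and bta-miR-486, which mark red cells. They were taken by name and make up 7 of the 1028 bovine miRNAs listed in each library. Small RNA was sequenced from bovine granulosa cells, the somatic cells that surround the oocyte, aspirated from small antral follicles of 3 to 6 mm. All cells were first cultured for 24 h and then stayed for a further 24 h at 37 °C (control) or were moved to 42 °C (heat stress, HS), with 3 libraries per group numbered 1 to 3. The ovaries came from a slaughterhouse, and how many animals contributed to each library is not given in the sources used here. By the methods of the study, red cells had been lysed before the cells were seeded, and the medium held bovine serum depleted of exosomes. No sorting step for leukocytes is described. The submitters call the 3 libraries of a group biological replicates, without saying whether they were separate animals or cultures, and p-values measure only the spread between them.

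Several blood lineages carry miRNAs that are scarce elsewhere. miR-142 is transcribed across the haematopoietic lineages and both arms of its hairpin are used. miR-223 belongs to the myeloid line, above all to neutrophils and monocytes, and miR-150 accumulates in mature lymphocytes. miR-144 and miR-451 are cut from a single transcript switched on by GATA1 during red cell formation, and miR-451 is unusual in that Argonaute 2, rather than Dicer, processes its hairpin. miR-486 lies in the ankyrin gene ANK1 and is made in red cell precursors and also in muscle. The RefSeq gene names used here belong to ARS-UCD2.0, a later assembly than the one used for mapping. In it MIR451 and MIR144 were direct neighbours with no other annotated gene between them. MIR486 overlapped ANK1, MIR142 overlapped TSPOAP1, MIR223 overlapped VSIG4, and MIR150 overlapped no other annotated gene.

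Recovered from the deposited values, the libraries held 2076239 to 4590971 reads of the listed miRNAs, and control replicate 1 was the shallowest. In a principal component analysis of the 278 miRNAs that reached 10 normalised CPM in 2 or more libraries of a group, control replicates 1, 2 and 3 lay at 6.13, -4.93 and -4.86 on the leading axis, and the HS libraries lay at 4.22, 2.42 and -2.97. Control replicate 1 thus stood apart within its group, and HS replicate 1 lay nearest to it. This axis held 43.1% of the variance. From here on, sets of 3 values are in the order of replicates 1, 2 and 3. Levels are given as normalised CPM, that is CPM (reads scaled to a common library size) after TMM scaling by the authors (trimmed mean of M-values). A mature miRNA is covered whole by its read, so levels of different miRNAs need no length correction, but ligation and amplification preferences between sequences remain in them. The libraries are bulk samples, in which fewer cells of a type and less miRNA per cell cannot be told apart.

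Together the 7 miRNAs were a very small part of the granulosa cell pool, and the leukocyte members made up nearly all of it. Their share of all miRNA reads ran from 0.0653% in HS replicate 1 (exact 95% binomial interval 0.0625% to 0.0682%) to 0.0883% in control replicate 1 (0.0843% to 0.0925%). Such intervals cover counting error only. For scale, bta-miR-155, an miRNA of activated leukocytes that many other cells also make, averaged 117333 normalised CPM and ranked 2 of all listed miRNAs. The 5 members bta-miR-142-5p, bta-miR-223, bta-miR-150, bta-miR-486 and bta-miR-142-3p reached 10 normalised CPM in at least 2 libraries of both groups. bta-miR-451 and bta-miR-144 did so in neither.

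**Figure D1:**
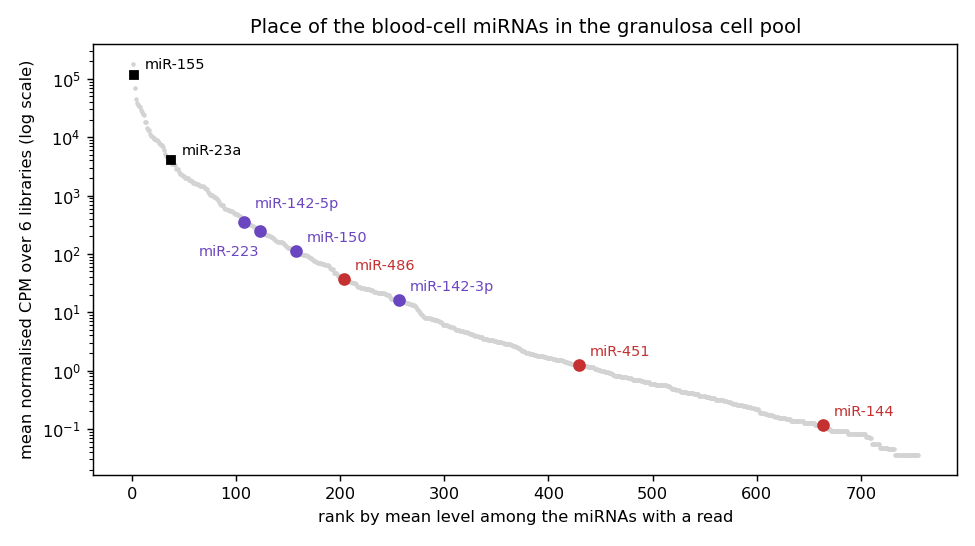
Mean normalised CPM over the 6 libraries (log scale) against rank, for each miRNA with at least 1 read (grey), with the leukocyte members in purple, the red cell members in red and 2 abundant miRNAs as black squares for scale. The highest member, miR-142-5p, stood at rank 108, miR-451 at rank 429 and miR-144 at rank 661.

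The order of the mean levels was bta-miR-142-5p (352 normalised CPM), bta-miR-223 (251), bta-miR-150 (114), bta-miR-486 (36.9), bta-miR-142-3p (16.0), bta-miR-451 (1.26) and bta-miR-144 (0.117). The ranges of the first 5 overlapped from each neighbour to the next. Even so, bta-miR-223 exceeded bta-miR-150, and bta-miR-150 exceeded bta-miR-486, within each of the 6 libraries. bta-miR-142-5p was above bta-miR-223 in 5 of 6 libraries, the exception being control replicate 1, and bta-miR-486 was above bta-miR-142-3p in 5 of 6, the exception being control replicate 3. Below bta-miR-142-3p the ranges were separate.

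**Figure D2:**
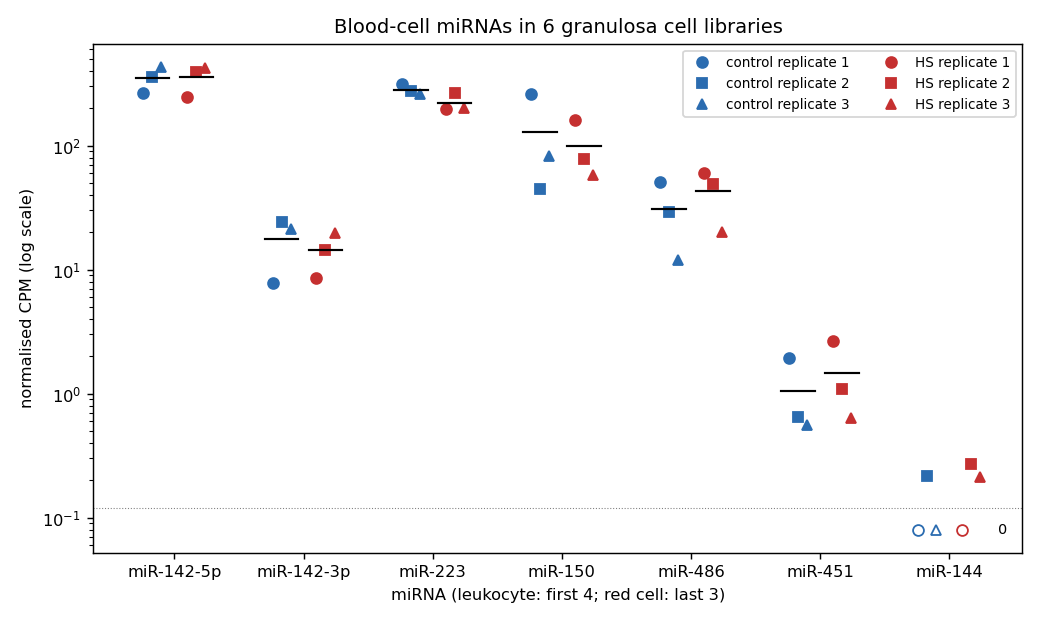
Normalised CPM (log scale) of each of the 7 miRNAs in each library, with control in blue, HS in red, marker shapes for replicates 1 to 3 and black bars for group means (none for miR-144). Open symbols under the dotted line are values of 0. Control and HS points overlap for each miRNA, whereas replicate 1 sits high for miR-150 and low for miR-142-3p in both groups.

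The 2 arms of the miR-142 hairpin, the broad leukocyte marker, were very unequal. At 37 °C bta-miR-142-5p measured 263, 357 and 429 normalised CPM, against 248, 391 and 425 at 42 °C. bta-miR-142-3p measured 7.81, 24.1 and 21.2 at 37 °C and 8.63, 14.4 and 19.8 at 42 °C, from 16 to 111 reads per library. For both arms replicate 1 was the lowest library of its group and the control and HS values overlapped.

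Within a library the 5p arm had 33.7, 14.8 and 20.2 times the reads of the 3p arm at 37 °C and 28.7, 27.1 and 21.5 times at 42 °C. This ratio does not depend on the scaling between libraries. Its counting intervals were wide where the 3p arm was low, at 20.6 to 59.4 in control replicate 1 and 12.2 to 18.1 in control replicate 2, and these 2 did not overlap. The mean ratio was 22.9 ± 9.72 at 37 °C and 25.8 ± 3.81 at 42 °C (SD, n = 3 each), a difference smaller than the spread between control libraries. How reads with shifted ends were assigned to an arm is not given in the sources used here.

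bta-miR-223, the myeloid member, was the steadiest of the 7. It measured 311, 274 and 259 normalised CPM at 37 °C and 196, 267 and 200.1 at 42 °C, on 590 to 1261 reads per library. The highest HS library lay above the lowest control library, so the groups overlapped, although the other 2 HS libraries lay below all control libraries. Its coefficient of variation was 9.45% in control and 18.1% in HS cells, where counting alone would give 3.26% and 3.46%.

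bta-miR-150, the lymphocyte member, was the most uneven of the leukocyte miRNAs. Control libraries gave 261, 44.97 and 82.7 normalised CPM, and HS libraries gave 162, 77.2 and 57.7. Replicate 1 was the highest library in both groups, and control replicate 1 exceeded control replicate 2 by 5.80-fold. The coefficient of variation was 89.0% in control and 55.9% in HS cells against 5.38% and 5.37% from counting, so nearly all of this spread lay beyond counting error.

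Against bta-miR-223, bta-miR-150 had 0.838 times as many reads in control replicate 1 and 0.825 times in HS replicate 1. In the other 4 libraries the ratio was 0.164, 0.319, 0.289 and 0.288, in the order control replicates 2 and 3 and HS replicates 2 and 3. The counting intervals of both replicate 1 libraries, whose lowest bound was 0.731, lay above all others, whose highest bound was 0.364. bta-miR-150 and bta-miR-223 thus stood in a different proportion in the replicate 1 libraries at both temperatures.

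**Figure D3:**
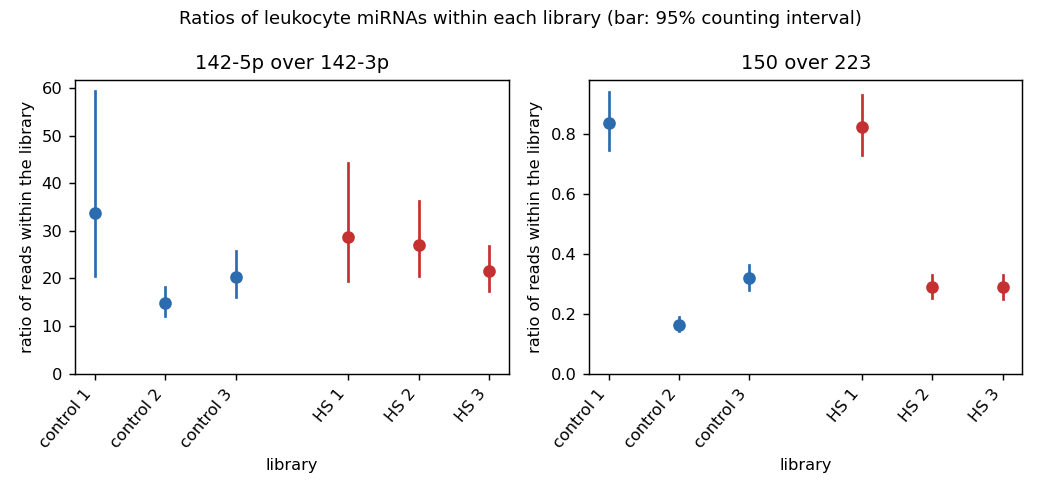
Ratio of reads within each library for miR-142-5p over miR-142-3p (left) and miR-150 over miR-223 (right), with control in blue, HS in red and bars for exact 95% counting intervals. The right panel shows both replicate 1 libraries near 0.8 and the other 4 libraries between 0.164 and 0.319.

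The red cell members were close to the limit of detection, except for bta-miR-486. bta-miR-451, which is extremely abundant in red cells, was read 4, 3 and 2 times in the libraries at 37 °C and 8, 4 and 3 times in those at 42 °C. The floor of 3 reads was not exceeded in 3 of the 6 libraries. In HS replicate 1, the highest, this came to an unscaled CPM of 2.56 (exact 95% binomial interval 1.11 to 5.05), and in control replicate 3, the lowest, to 0.560 (0.0678 to 2.02). The intervals of these extremes overlapped, so an order of the libraries was not detectable at this depth.

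bta-miR-144, cut from the same transcript as bta-miR-451, had 1 read in control replicate 2, 1 in HS replicate 2 and 1 in HS replicate 3. It had 0 reads in control replicates 1 and 3 and in HS replicate 1, for which the floor of 3 reads, a different bound from the exact interval, gives an upper limit of 1.44, 0.840 and 0.961 CPM. With every library under the floor, no fold change is given.

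A common gauge of red cell carry-over in fluids sets miR-451 against miR-23a, whose level in plasma is little affected by red cell lysis. bta-miR-23a had 3552 to 4524 normalised CPM over the 6 libraries. Its reads were 1338 times those of bta-miR-451 in HS replicate 1 (exact 95% counting interval 679 to 3100.3) and 7736 times in control replicate 3 (2141 to 63888), where bta-miR-451 had 2 reads. Since bta-miR-23a was abundant in these cells, the ratio describes these libraries and cannot be read on the scale used for plasma.

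The third red cell member, bta-miR-486, measured 50.8, 29.1 and 11.98 normalised CPM at 37 °C and 60.1, 49.2 and 20.01 at 42 °C. Replicate 1 was highest and replicate 3 lowest in both groups, and the groups overlapped. It took 95.6% to 97.3% of the summed level of the 3 red cell miRNAs, so that this sum is in effect bta-miR-486 alone. It had more reads than bta-miR-451 in each library. Their ratio rests on 2 to 8 reads of bta-miR-451, from 21.5 in control replicate 3 (exact 95% counting interval 5.6 to 183) to 45.3 in HS replicate 2 (17.4 to 168), so an order of the libraries was not detectable.

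Whether HS changed these miRNAs was tested in a limma fit over the 365 miRNAs that passed a filter on low reads, 5 of the 7 members among them. None of the 5 was called at the threshold of the study, which asks for an adjusted p no higher than 0.2 together with a log2 fold change of 1 or more in size, where 3.01% of all tested miRNAs were. None had an adjusted p under 0.05 (2.19% of all tested) or an unadjusted p under 0.05 (14.5%). For none of the 5 did the control and HS values lie apart, as they did for 20% of all tested. The edgeR quasi-likelihood test and the DESeq2 Wald test on the recovered reads also gave 0 calls among them, with 0 at an unadjusted p under 0.05 in each. Under 4 of the 20 alternatives tried, 1 member had an unadjusted p under 0.05.

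The lowest p belonged to bta-miR-223, at 281 ± 26.6 normalised CPM (37 °C) and 221 ± 40 (42 °C; SD, n = 3 each). Its log2 fold change was -0.36 ± 0.176 (SE, 95% interval -0.77 to 0.06, limma adjusted p = 0.418). bta-miR-142-5p, at 350 ± 82.9 and 354 ± 93.9, had a log2 fold change of 0.01 with an interval of -0.63 to 0.65 (limma adjusted p = 0.982). For these 2 members the interval lies within a log2 change of 1 in either direction.

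In this fit, which does not use the replicate numbers, the intervals of the other 3 were too wide for that. bta-miR-142-3p had a log2 fold change of -0.22 (interval -1.33 to 0.89, limma adjusted p = 0.943) and bta-miR-150 of -0.14 (interval -1.72 to 1.43, limma adjusted p = 0.959). bta-miR-486, at 30.6 ± 19.4 and 43.1 ± 20.7 normalised CPM at 37 °C and 42 °C, had a log2 fold change of 0.56 (interval -0.84 to 1.95, limma adjusted p = 0.806). The median over the 5 was -0.14, beside -0.002 over all 365. Control replicate 1 lay apart within its group. Without it, the log2 fold change was 0.55 for bta-miR-150, -0.18 for bta-miR-142-5p, -0.70 for bta-miR-142-3p and 1.02 for bta-miR-486. The limma adjusted p was 0.559, 0.788, 0.369 and 0.373 in that order. bta-miR-223 then stood at -0.28 (limma adjusted p = 0.457). For bta-miR-486 the value was 1.02 without HS replicate 3, 0.25 without HS replicate 1 and 0.02 without control replicate 3. Its size thus depended on which libraries were kept, while at each replicate number the HS library was the higher.

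**Figure D4:**
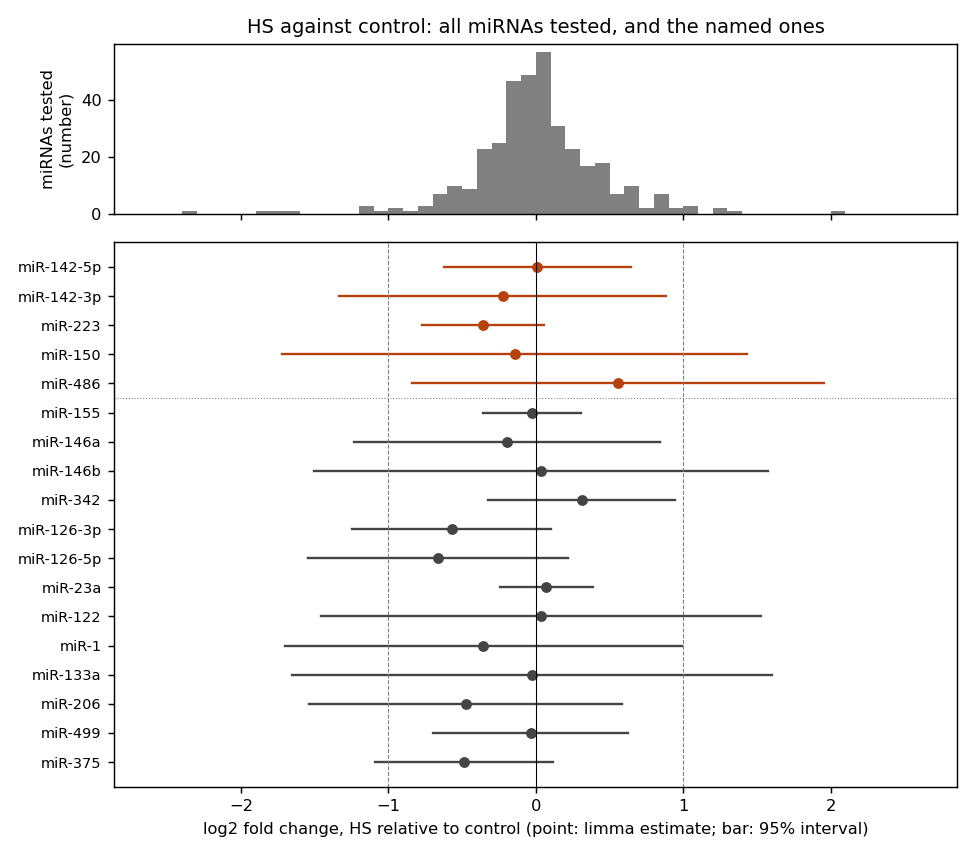
Upper panel: number of tested miRNAs by log2 fold change, HS relative to control. Lower panel: log2 fold change (point) and 95% interval (bar) from limma for the 5 members that passed the filter (orange) and 13 other named miRNAs (grey), with dashed lines at a log2 fold change of 1 in size. All of these intervals include 0, and those of miR-150 and miR-486 are the widest among the members.

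Summed over the 4 leukocyte members, the level was 843, 700.2 and 792 normalised CPM at 37 °C and 614, 749 and 703 at 42 °C. The means were 778 ± 72.2 and 689 ± 68.8 (SD, n = 3 each), a difference of -0.18 on the log2 scale beside a pooled SD between replicates of 0.141, and the groups overlapped. The make-up of the sum changed between libraries, since bta-miR-142-5p made up 31.2% of it in control replicate 1 and 60.5% at most. The 3 red cell members summed to 52.7, 29.98 and 12.5 at 37 °C and 62.7, 50.6 and 20.9 at 42 °C. Their difference of 0.58 on the log2 scale stood beside a pooled SD of 0.948. These sums are descriptions and were not tested.

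The members did not all vary alike over the libraries. Each was expressed as log2(normalised CPM + 1) minus its own mean, and 2 profiles were compared by the root mean square (RMS) of their differences over the 6 libraries. The arms of miR-142 were 0.349 log2 units apart, the closest of the 10 pairs among the 5 members that passed the filter. The widest gap, 1.42, was between bta-miR-142-3p and bta-miR-150, both leukocyte miRNAs. In control replicate 1 bta-miR-150 stood 1.46 log2 units above its mean and bta-miR-142-3p 0.84 below. In HS replicate 1 they stood 0.77 above and 0.71 below. Within libraries bta-miR-150 had from 1.86 to 33.4 times the reads of bta-miR-142-3p, a 17.9-fold spread, so these miRNAs did not scale alike between libraries.

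**Figure D5:**
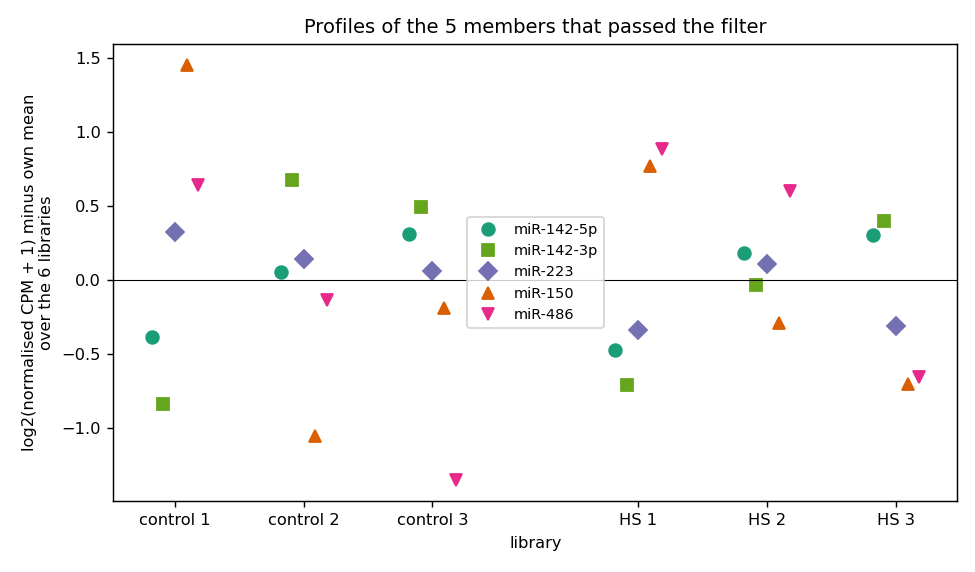
Log2(normalised CPM + 1) of the 5 members that passed the filter, each minus its own mean over the 6 libraries, by library. In both replicate 1 libraries miR-150 and miR-486 lie above their means and the arms of miR-142 below, and the range of miR-223 is the narrowest.

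For each of these 5 members the 360 other tested miRNAs were ordered by the same RMS difference. Nearest to bta-miR-142-3p was bta-miR-146a, an NF-κB-induced miRNA of leukocytes and other cells, at 0.146 log2 units, where the spread of bta-miR-142-3p around its own mean was 0.587. bta-miR-146a measured 361, 1059 and 800.2 normalised CPM at 37 °C and 385, 729 and 725 at 42 °C, low in replicate 1 of both groups. The next was bta-miR-326, at 0.246.

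Nearest to bta-miR-142-5p were bta-miR-877 (0.170) and bta-miR-27b (0.179), and nearest to bta-miR-223 were bta-miR-502b (0.0821) and bta-miR-181a (0.0862). A flat profile has many near neighbours, which applies to bta-miR-223. For bta-miR-142-5p the spread around its own mean was 0.316 and for bta-miR-223 it was 0.242. bta-miR-150, with a spread of 0.859, was nearest to bta-miR-2340 (0.429) and bta-miR-2313-5p (0.479), both under 10 normalised CPM in each library.

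bta-miR-486 was nearest to bta-miR-1949 (0.275) and next to bta-miR-122 (0.302), the miRNA that dominates the liver. bta-miR-122 measured 71.8, 54.3 and 17.3 normalised CPM at 37 °C and 72.0, 49.5 and 20.4 at 42 °C, with replicate 1 highest and replicate 3 lowest in both groups, as for bta-miR-486. Its reads were 1.41, 1.87 and 1.44 times those of bta-miR-486 at 37 °C and 1.2, 1.01 and 1.02 times at 42 °C. Each HS value of this ratio lay below all control values, which was seen after the fact and not tested. The counting intervals of control replicate 1 (1.09 to 1.83) and control replicate 3 (0.962 to 2.18) overlapped those of all HS libraries. That of control replicate 2 (1.51 to 2.32) lay above them, the highest HS bound being 1.47 in HS replicate 1. Likeness over 6 libraries is a description and rests on no test.

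Other miRNAs linked to leukocytes had higher mean levels than any of the members, by the least for bta-miR-146a, at 677 normalised CPM against 352 for bta-miR-142-5p. bta-miR-155 is induced in activated leukocytes, bta-miR-146a and bta-miR-146b are induced by NF-κB, and bta-miR-342 is rich in lymphocytes, but none is restricted to blood cells. Their levels over the 6 libraries ran from 361 normalised CPM, for bta-miR-146a, to 138129, for bta-miR-155. bta-miR-146b averaged 1094. bta-miR-342 measured 10683, 5139 and 9963 normalised CPM at 37 °C and 10062, 10438 and 9935 at 42 °C, and replicate 1 was not the highest in both groups as it was for bta-miR-150. None of the 4 passed either threshold in limma, the lowest adjusted p being 0.726.

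The endothelial markers, a sign of vessel cells that could accompany blood, were bta-miR-126-3p and bta-miR-126-5p. bta-miR-126-3p measured 258, 196 and 310 normalised CPM at 37 °C and 179, 117 and 226 at 42 °C, about the level of bta-miR-223. bta-miR-126-5p measured 40.03, 32.6 and 41.8 at 37 °C and 24.9, 13.3 and 39.2 at 42 °C. The groups overlapped for both. The log2 fold change was -0.57 for the 3p arm (limma adjusted p = 0.418) and -0.66 for the 5p arm (limma adjusted p = 0.481). Their sum was lowest in HS replicate 2, at 131, and highest in control replicate 3, at 352, a different order from those of bta-miR-150 and bta-miR-486.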

How the data were processed

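Per the labels, each library was made from 100 ng of RNA with adapters carrying unique molecular identifiers (UMIs) and 16 PCR cycles. According to the methods and the submitters' processing notes, adapters were trimmed with Cutadapt 1.11, reads sharing a UMI were collapsed, and reads were mapped with Bowtie2 2.2.2 to the bovine genome UMD3.1 (at most 1 mismatch in the first 32 bases) and assigned to miRBase. The deposited signal is TMM-normalised CPM, scaled by the authors with edgeR, with 1 value per miRNA and library. How reads that fit several miRNAs were shared is not given in the sources used here.

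In each library 100% of the values were whole multiples of 1 step (tolerance 0.01 of a read), which gave the reads. Their totals over the listed miRNAs served as depth, and the read totals in the study's mapping summary, which are higher, were not used. The floor of 3 reads equals 0.639 to 1.46 normalised CPM and covers counting error only. The written design named limma for this unit. limma 3.58.1 (eBayes with trend, R 4.3.3) was run on log2(value + 1) after the filterByExpr filter of edgeR 4.0.16, with Benjamini-Hochberg adjustment over all 365 miRNAs tested. Fold changes on this scale understate low miRNAs. On reads simulated from these libraries for HS against control, 99.5% of 200 miRNAs changed by a log2 fold of 2 were called among 365 tested, with 0.5% of the calls false. In a separate simulation without any change, 0 of 357 tested were called. Whether a log2 fold of 1, or a member as uneven as bta-miR-150, bta-miR-486 or bta-miR-142-3p, would be called was not tested this way. Ratios and shares used Python 3.11.15 with scipy 1.17.1.

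The members and comparison lists were chosen with earlier results of these data known. The rule for named miRNAs was the 7 members, all rows of the comparison lists, and the 2 nearest profiles of each member that passed the filter. One name of the comparison lists, bta-miR-124b, was not among the 1028 listed miRNAs and so could not be analysed. No pair of libraries within a group was the same within sampling noise (chi-square per degree of freedom of 84.3 or more). Alternatives were other scalings, filters, pseudocounts, tests (edgeR quasi-likelihood, DESeq2 1.42.0, limma-voom), the replicate block and leaving out each library.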

Additional observations from a re-analysis of the deposited data

How the results depend on the processing

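The number of members called stayed at 0 under all 20 alternatives, as did the number with an adjusted p under 0.05. bta-miR-223 was lower in HS cells under all 20 (log2 fold change -0.54 to -0.28, limma adjusted p or that of the tool used 0.277 to 0.760) and bta-miR-486 higher under all 20 (0.02 to 1.02, adjusted p 0.258 to 0.994), none past the threshold of 0.2. The unadjusted limma p of bta-miR-223 was 0.0386 with upper quartile factors and 0.0281 without HS replicate 2. Of 100 comparisons of a member under an alternative, 92 kept direction and side of the threshold and 8 changed sign. bta-miR-142-5p went from 0.01 to -0.18 with upper quartile factors, which moved the median of all tested miRNAs to -0.18. Leaving out 1 library at a time gave -0.18 to 0.25 for bta-miR-142-5p (negative without control replicate 1, HS replicate 2 or HS replicate 3). It gave -0.71 to 0.55 for bta-miR-150 (positive without control replicate 1 or HS replicate 3) and -0.70 to 0.075 for bta-miR-142-3p (positive without control replicate 2 or HS replicate 1). The cause was not tested.

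The summed leukocyte level differed by -0.36 with upper quartile factors and by -0.33 without bta-miR-142-5p, against -0.18, and by -0.25 to -0.10 with a library omitted. That of the red cell members lay between 0.02 and 1.06 with any single library omitted. Over all tested miRNAs, 11 calls ran from 8 to 12 with all libraries and from 8 to 16 with a library left out. The 8 at an adjusted p under 0.05 became 5 with upper quartile factors and 19 with the DESeq2 Wald test, and 2 to 12 with a library left out. Upper quartile factors gave 2 of 11 calls higher in HS cells against 4 of 11, and omission of control replicate 1 gave 9 of 16. The cause was not tested.

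The labels do not say that a number marks shared cells, and deviations of same-numbered libraries from their group means correlated over the 365 miRNAs at 0.421, -0.117 and 0.616, so the numbers were not taken as pairs. With the replicate block limma called 10 miRNAs and no member, and had 6 at an adjusted p under 0.05. bta-miR-486 then had an adjusted p of 0.258 (unadjusted p = 0.0334 in limma, 0.0342 in edgeR) and bta-miR-223 of 0.393. The block lowered the limma SE of bta-miR-142-3p from 0.468 to 0.236, of bta-miR-150 from 0.665 to 0.327 and of bta-miR-486 from 0.590 to 0.189. By the blocked quasi-likelihood fit of edgeR there were 12 calls and no member among them. With no filter bta-miR-451 was at 0.24 on the log2 scale, HS relative to control (limma adjusted p = 0.847), a value that depends on the pseudocount. Depth limits bta-miR-451 and bta-miR-144 throughout and bta-miR-142-3p in control replicate 1, with 16 reads.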

Other observations

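miRNAs used as markers of tissues that were not sampled were listed for comparison, without a check that each is restricted to them. The highest mean among them, 69.2 normalised CPM for bta-miR-1, lay below those of bta-miR-142-5p, bta-miR-223 and bta-miR-150 and above those of the other 4 blood-cell miRNAs. Of 10 such miRNAs listed, bta-miR-208a of heart and bta-miR-124a of neurons had 0 reads in each library. bta-miR-133b and bta-miR-208b, both of muscle, stayed under 1 normalised CPM. bta-miR-451 reached 2.65 but was itself under 1 in 3 of the 6 libraries. bta-miR-499 and bta-miR-206 of muscle and bta-miR-375 of pancreas and pituitary ran from 1.28 to 11.3.

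The muscle miRNAs bta-miR-1 and bta-miR-133a were higher, with means of 69.2 and 67.2 normalised CPM against 36.9 for bta-miR-486, which muscle also makes. In the order of replicates 1, 2 and 3, bta-miR-1 measured 115, 31.1 and 91.9 normalised CPM at 37 °C and 30.5, 89.7 and 56.6 at 42 °C. bta-miR-133a measured 126, 22.4 and 63.8 at 37 °C and 29.2, 105 and 56.4 at 42 °C. Both were highest in control replicate 1, but in HS cells both were lowest in replicate 1, where bta-miR-486 was highest. In limma none of the 6 miRNAs of this list that passed the filter reached an adjusted p of 0.2, the lowest being 0.441 for bta-miR-375. bta-miR-375 measured 5.93 ± 0.132 normalised CPM at 37 °C and 4.08 ± 1.41 at 42 °C (SD, n = 3 each), on 10 to 28 reads per library.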
